A study of Mus musculus with 4 samples.

Results

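The genes examined here are those whose symbols begin with Rps or Rpl and a digit, which take in the cytosolic ribosomal proteins together with a few relatives. The symbol rule took 97 of the 32285 genes in the table. Of these, 73 were counted as ribosomal proteins, 30 of the small and 43 of the large subunit. The remaining symbols are 8 paralogs, 10 kinases named for their substrate Rps6, 1 protein that binds Rps19 and 5 pseudogenes. A minimum of 200 summed counts in a library was met by 93 symbols, each of them in every library. The 4 that fell short were Rpl9-ps1, Rpl36-ps4, the kinase gene Rps6ka4 and Rpl3l, the Rpl3 paralog of muscle, with 0 to 135 counts per library. All 73 ribosomal proteins passed this minimum, and the name of the family fits its contents, with the exception of the kinases and the binding protein.

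Single-cell transcriptomes were measured in mouse embryonic stem cells of the male line E14tg2a.4, either wild-type (WT) or carrying a gene trap that truncates 1 copy of Srrm2, a splicing factor gene (Srrm2 hKO, line CG0630). Both lines were kept in medium with LIF, which sustains self-renewal, and moved to serum-free ESGRO medium with LIF before collection, for a time that the labels and the methods give differently. Each genotype gave 2 samples, and the Srrm2 hKO samples come from a single trapped clone in the E14tg2a.4 background, so clone and genotype cannot be told apart in them. The deposited table joins 4 libraries whose cells bear a library number and no sample name, so libraries are described by number and no genotype was compared. Since each library is 1 culture, no difference between libraries has a replicate check, and intervals given below are 95% intervals of counting error only.

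The limits that the study states for its cell filter, applied here, kept 31989 of 41142 barcodes, a number that differs from its own count of kept cells, at median depths of 18378 to 21898 UMIs (unique molecular identifiers, each standing for 1 captured transcript). Each library held 7464 to 8514 kept cells with 166839268 to 200180473 UMIs in all, and 105 barcode sequences occurred in more than 1 library. Srrm2, the targeted gene, was at 387, 533, 238 and 356 CPM (UMIs of a gene scaled to a total of 1000000 UMIs) in libraries 1 to 4, and it was not used to name a library. Embryonic stem cell markers (Pou5f1, Sox2, Nanog, Zfp42, Esrrb and Utf1) summed to between 2073 and 2590 CPM. In contrast, the 6 primitive endoderm markers summed to at most 1.73 CPM and the 6 fibroblast markers to at most 11.6 CPM. The trophectoderm list reached 49.7 CPM, of which Tfap2c, a gene that stem cells also express, made up 48.3 CPM. The part of these other transcripts in the results below was not tested.

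Ribosomal proteins are made in nearly equal numbers, since each ribosome carries most of them once, and their mRNAs are among the most abundant in growing cells. Most of these mRNAs begin with a C followed by a run of pyrimidines, the 5′ terminal oligopyrimidine (TOP) motif, through which the kinase mTOR couples their translation to nutrients. Pluripotent stem cells divide rapidly and rely on a high output of ribosomes, while the exit from the naive state involves a change in translation and growth.

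To show the pyrimidine runs near the start of these genes, stretches of 30 bases are given for ribosomal proteins with wide and with narrow differences between libraries, and for a pair of genes that lay below and above the family between cell states. Sequences are from RefSeq (GRCm38.p6), printed 5′ to 3′ on the strand of the gene, and capitals mark the longest pyrimidine run within 50 bases on either side of the annotated start. The first 4 had wide differences between libraries (Rpl41, Rps21, Rpl35 and Rpl38), the next 3 narrow ones (Rps13, Rpl24 and Rpl7a), and Rpl12 and Rps2 were the pair that differed by state. Counted from the annotated start at 0, the first printed base lay at -13, -12, 0 and -19 in Rpl35, Rpl38, Rps13 and Rpl7a, whose stretches hold the start, at 20 in Rpl41, Rps21, Rpl12 and Rps2, and at -48 in Rpl24. The runs of Rpl41 and Rps2 reach the end of the searched window and may go on beyond it. Only in Rpl35, Rpl38 and Rpl7a does the marked run span the annotated start, so the runs are not read as TOP motifs.
Rpl41, chr10:128549119-128549148, minus strand: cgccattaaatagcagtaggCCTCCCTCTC
Rps21, chr2:180257399-180257428, plus strand: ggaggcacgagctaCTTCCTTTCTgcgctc
Rpl35, chr2:39005115-39005144, minus strand: gccccgCCCTTTCCTCTTTCTCTCgaacca
Rpl38, chr11:114668568-114668597, plus strand: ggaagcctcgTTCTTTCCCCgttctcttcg
Rps13, chr7:116334161-116334190, minus strand: tgagtggcgtcaCTTCCTgtgcggcttgat
Rpl24, chr16:55966227-55966256, plus strand: acctcaaacccaCTCCCCgccaatgctgta
Rpl7a, chr2:26910788-26910817, plus strand: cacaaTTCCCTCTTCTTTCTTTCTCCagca
Rpl12, chr2:32961732-32961761, plus strand: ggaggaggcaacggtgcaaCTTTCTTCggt
Rps2, chr17:24720083-24720112, plus strand: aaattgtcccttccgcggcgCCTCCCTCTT

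A start window was found for 54 of the 73 ribosomal proteins. In the 100 bases around the start, a pyrimidine run of at least 7 bases occurred in 48 of the 54 windows (88.9%), compared with 49.6% of 20267 windows of all genes. The median longest run was 11 bases in the ribosomal proteins and 6 bases in all genes. CTTTCC on the strand of the gene, which such runs can contain, was found in 33.3% and 4.53% of windows. CCGGAAG on either strand, a sequence bound by ETS factors, was found in 38.9% of the ribosomal protein windows of 300 bases, against 11.2% of all windows of that length, and TATAAA on either strand in 7.41% against 13.2%. Among the printed genes, runs had 10, 10, 18 and 10 bases in those with wide and 6, 6 and 21 bases in those with narrow differences between libraries. Runs were taken anywhere in the window, before or after the start, so these are not counts of TOP motifs. The letters describe the windows, and their part in any difference below was not tested.

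The level of the family as a whole was examined first. Rps and Rpl symbols took 28.0%, 24.9%, 26.5% and 25.9% of all UMIs in libraries 1 to 4. The highest and lowest shares, in libraries 1 and 2, differed 1.13-fold, and counting intervals lay within 0.01 percentage points of each share. The fold was 1.251 with TMM factors and 1.26 with size factors in place of total UMIs. The 73 ribosomal proteins made up nearly all of it, from 24.4% of UMIs in library 2 to 27.7% in library 1. The 43 large-subunit genes together had 1.21 to 1.26 times as many UMIs as the 30 small-subunit genes, sums over unequal numbers of genes. Mitochondrially encoded transcripts took 5.30%, 4.09%, 4.38% and 3.47% of UMIs in the same libraries, and the fold was 1.14 when they were left out of the total.

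The share also varied between the cells of a culture. Its median over cells was 28.2%, 24.8%, 26.9% and 25.7% in libraries 1 to 4, with an SD over cells of 2.67 to 3.52 percentage points. Sampling of UMIs alone would give an SD of 0.300 to 0.334 points at the depths of the kept cells. In library 1, 90% of cells lay between 23.8% and 32.5%, and in library 4 between 20.6% and 31.8%, so the distributions over cells overlapped widely.

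Levels of single genes are given in CPM and were not divided by length, because the 3′ chemistry yields 1 UMI per captured transcript whatever its length. Of the 73 ribosomal proteins, 72 stood at or above 1000 CPM in every library. The highest over all libraries was Rpl13, a large-subunit protein, at 9372, 6468, 8876 and 5850.2 CPM. Rps20, a protein of the small-subunit head, followed at 8475, 6769.5, 7499 and 6448 CPM. Rps12, of the small-subunit head, was at 5792 to 6537 CPM, and Rps27a, which is made as a fusion to ubiquitin, at 4807 to 6978 CPM. Which gene stood highest depended on the library: Rpl13 in libraries 1 and 3, Rps20 in library 2 and Rpl41 in library 4.

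At the lower end, Rpl29, a basic large-subunit protein, stood apart from all other ribosomal proteins. Its levels of 300.3, 275, 399 and 349 CPM lay below those of the next genes, Rpl31 (1051 to 1753 CPM), a protein near the tunnel exit, Rpl10 (1297 to 1632 CPM), Rpl35 (1115 to 2374 CPM) and Rpl36a (1475 to 2231 CPM). These levels are uncertain for genes with many processed pseudogenes, because reads that match several genes are dropped from the counts. The highest gene exceeded the lowest 22.2-fold to 31.2-fold within a library. The 10 highest genes together held 22.4% to 23.8% of the ribosomal protein UMIs.

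It was next asked which ribosomal proteins differed between libraries. Of the 73 genes, 23 (31.5%) differed at least 1.5-fold between their highest and lowest library, compared with 41.0% of the 11099 genes with enough counts in every library. With all Rps and Rpl symbols the share was 34.4%. The median fold was 1.36 for the ribosomal proteins and 1.42 for all genes. Which share was larger depended on the scaling, since TMM factors gave 36 ribosomal proteins (49.3%) against 40.9% of all genes, and size factors 36 (49.3%) against 41.3%. The count of 23 rested on library 4: without it, 4 genes (5.48%) were past 1.5-fold, against 32.1% of all genes. Close to the limit, Rpl12 lay at 1.49-fold and Rpl9 at 1.51-fold.

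The widest differences belonged to genes with short coding sequences, up to the 369 nucleotides of Rpl35. Rpl41, which encodes the smallest ribosomal protein, a basic peptide of the large subunit (ENSMUSG00000093674, GRCm38 chr10:128548114-128549305, minus strand), stood at 3501, 5549, 3941 and 7936 CPM. Its highest level exceeded its lowest 2.27-fold (2.26 to 2.27). The same order of libraries was found for Rpl38, known for its role in the translation of Hox mRNAs, at 1486, 2040.5, 1711 and 3142 CPM (2.12-fold), and for Rps29, at 2342, 3564, 2591 and 4919 CPM (2.10-fold). Rps21, a small-subunit protein, was at 2359, 3304, 2475 and 5038 CPM (2.14-fold), also with library 4 highest and library 1 lowest. Rpl35, a protein near the exit of the nascent chain, was at 1115, 1472, 1469 and 2374 CPM (2.13-fold).

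Other members differed little on total UMIs. Rps13, a small-subunit protein, was at 3493, 3536, 3542 and 3502 CPM, a 1.01-fold range. With TMM and with size factors, Rps13 was highest in library 1 and lowest in library 4, with ranges of 1.14-fold and 1.16-fold. Rpl24, which takes part in a bridge between the subunits (2853 to 3180.1 CPM), and the large-subunit protein Rpl27 (2487 to 2775 CPM) ranged 1.11-fold and 1.12-fold. Rpl7a (1706 to 1909 CPM) and Rps12 ranged 1.12-fold and 1.13-fold. A further group ran against the short genes. Rps18, of the small-subunit head, was at 5691, 4003, 4718 and 3313 CPM and Rpl10a at 4028, 2462, 3519 and 2412 CPM, with library 1 highest and library 4 lowest in each.

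Of the 23 genes past 1.5-fold, the 14 that were highest in library 4 had coding lengths of 75 to 375 nucleotides. The 9 that were lowest in library 4 (Rpl3, Rpl9, Rpl10a, Rpl13, Rpl17, Rpl18, Rps4x, Rps7 and Rps18) had coding lengths of 456 to 1209 nucleotides. The ranges did not overlap, but these genes were picked by the size of the same differences. Among genes under the limit, Rpl6, with 888 nucleotides, was also highest in library 4 (1.16-fold). Among all 73 genes, 34 (46.6%) had their highest level in library 1 and their lowest in library 4, against 15.7% of all genes, and 13 (17.8%) the reverse, against 26.0% of all genes. When library 4 was set against library 1, 13 of 73 genes (17.8%) were at least 1.5-fold higher, against 20.2% of all genes, and 8 (11.0%) were at least 1.5-fold lower, against 10.6% of all genes. This split depended on the scaling. With TMM factors, 9 genes (12.3%) were higher, against 13.5% of all genes, and 24 (32.9%) lower, against 17.3%. With size factors, the same numbers of 9 (12.3%) and 24 (32.9%) stood against 12.8% and 18.2% of all genes. With mitochondrial UMIs left out of the total, 12 (16.4%) were higher, against 19.0% of all genes, and 12 (16.4%) lower, against 11.5%. On total UMIs the median gene of the table lay 0.12, 0.06 and 0.13 above library 1 on the log2 scale in libraries 2, 3 and 4, while the median ribosomal protein lay at -0.19, -0.07 and -0.22. For library 4 the median ribosomal protein was at -0.41 with TMM factors and -0.44 with size factors, and the median gene of the table at -0.06 with TMM factors.

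**Figure D1:**
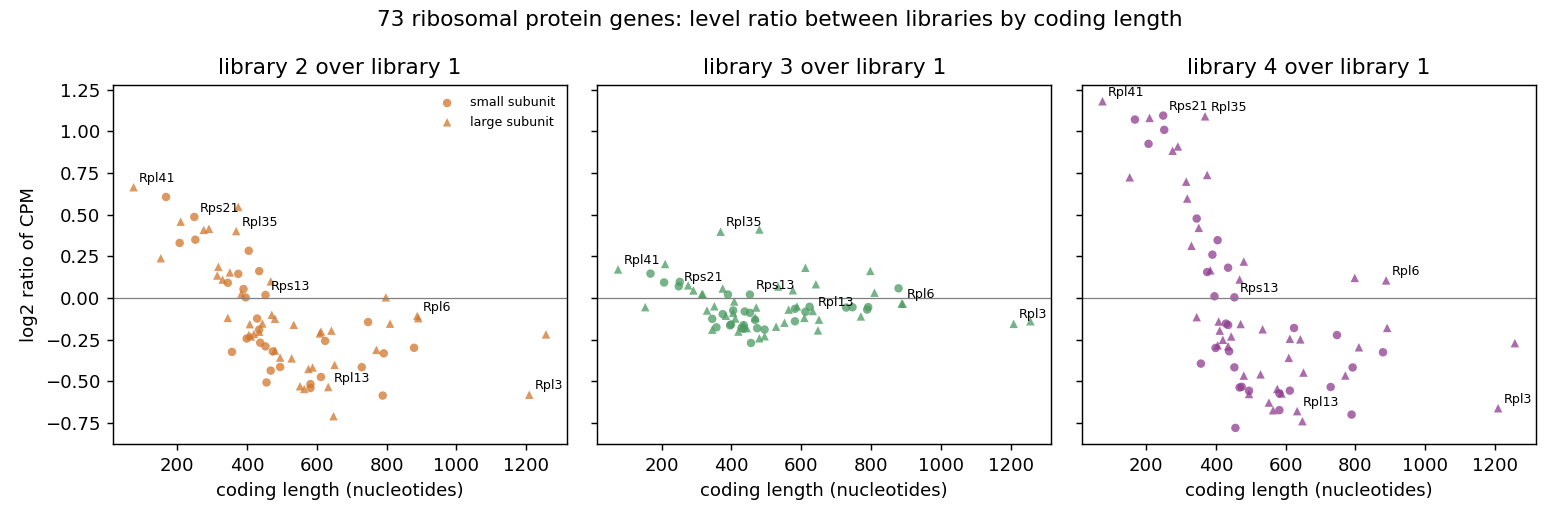
Each point is 1 of the 73 ribosomal protein genes, by its coding length in nucleotides and the log2 ratio of its CPM in library 2, 3 or 4 over library 1, with circles for the small and triangles for the large subunit. Ratios over library 1 fall with length in libraries 2 and 4, from Rpl41 at the left to genes of 400 nucleotides and more. In library 3 their median is -0.07, with single genes further from 0, such as Rpl35 at 0.40.

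Levels were next related to coding length, a choice made after the data were seen. Pearson's r between the log2 of the coding length and the log2 ratio of CPM over library 1 was -0.74 for library 4 and -0.73 for library 2 (Spearman's rho -0.71 and -0.69), but -0.27 (rho -0.15) for library 3. These are correlations across 73 genes, which share the same libraries and are not independent replicates. The GC content of the mRNA gave r and rho between -0.06 and 0.10. Among 10567 other protein-coding genes, the corresponding r with coding length was 0.07 for library 4, 0.12 for library 2 and -0.08 for library 3.

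When the family was split by coding length, its balance between short and long members changed from library to library. The 25 shortest genes (75 to 405 nucleotides) took 7.49%, 8.18%, 7.29% and 9.99% of UMIs in libraries 1 to 4. The 24 longest (576 to 1257 nucleotides) took 9.84%, 7.63%, 9.46% and 7.29%. The ratio of the shortest to the longest was thus 0.761 and 0.771 in libraries 1 and 3, but 1.07 and 1.37 in libraries 2 and 4. The 24 genes of middle length went with the longest, at 10.4%, 8.65%, 9.46% and 8.19%.

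Other genes with very short coding sequences also differed between the libraries. Those under 200 nucleotides (42 genes outside the family) had median log2 ratios over library 1 of 0.66, 0.38 and 0.98 in libraries 2, 3 and 4, compared with 0.61, 0.15 and 1.07 for the 3 ribosomal proteins of that length. From 200 to below 300 nucleotides, the 189 other genes were at 0.30, 0.25 and 0.38 and the 6 ribosomal proteins at 0.41, 0.08 and 0.97. From 500 to below 600 nucleotides the median was 0.03 for 462 other genes and -0.57 for 8 ribosomal proteins in library 4. That was the lowest ribosomal protein median in library 4. Longer classes stood at -0.43 (600 to 799 nucleotides, 14 genes), -0.24 (800 to 999, 4 genes) and -0.47 (1000 or more, 2 genes). The fall with length thus did not go on through the longest genes.

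**Figure D2:**
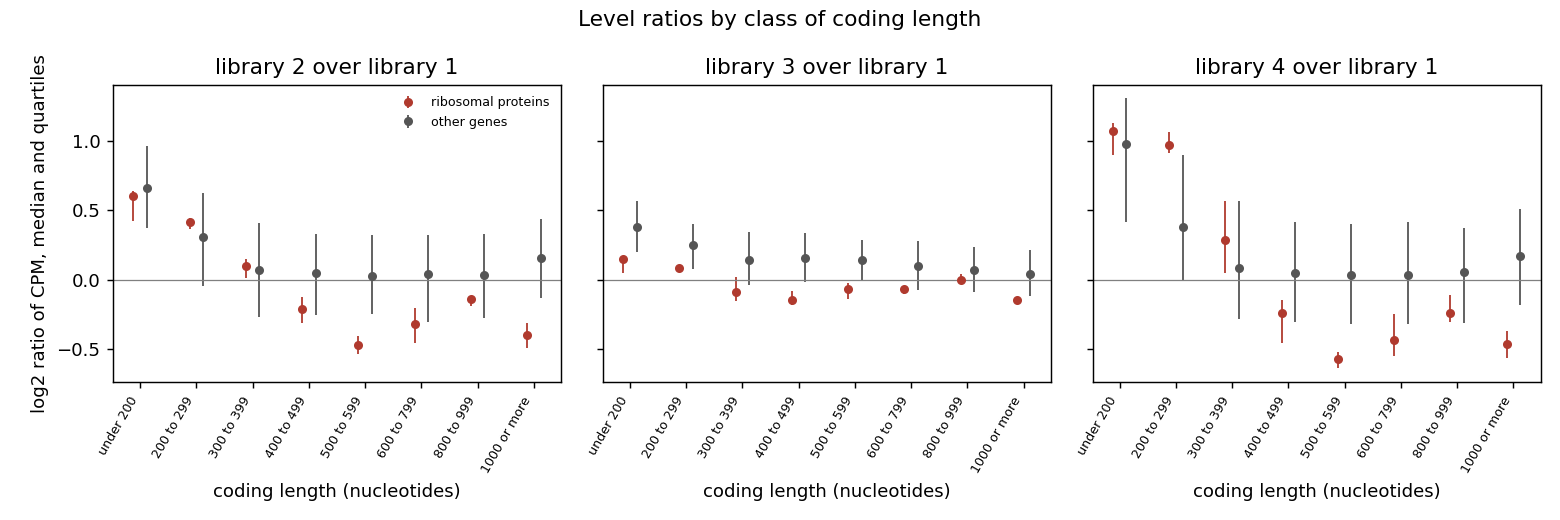
Median log2 ratio of CPM over library 1, with lines from the lower to the upper quartile, for ribosomal proteins (red) and all other genes (grey) in classes of coding length. Genes under 200 nucleotides lie above 0 in both groups, with medians near 1 in library 4, whereas from 400 nucleotides on the medians of ribosomal proteins lie below 0 in libraries 2 and 4 and those of other genes above 0.

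The balance of short and long members varied little within a library. Across 5 equal groups of cells ordered by UMI count, the ratio of shortest to longest genes lay between 0.756 and 0.768 in library 1 and between 1.36 and 1.38 in library 4. In naive-high and formative-high cells, as defined below, it was 0.761 and 0.761 (library 1), 1.07 and 1.07 (library 2), 0.767 and 0.777 (library 3), and 1.36 and 1.37 (library 4). Barcodes that the cell filter removed for low depth and a high mitochondrial share had ratios of 0.788, 1.09, 0.781 and 1.39, near those of the kept cells of their library. Removed barcodes of good depth with a high mitochondrial share had 0.784, 1.002, 0.812 and 1.28, lower than kept cells in libraries 2 and 4. Over cells, the UMIs of the shortest and of the longest genes rose together, with r between 0.635 and 0.795 after thinning to 5000 UMIs per cell. The part of library preparation in these differences was not tested, since each culture has 1 library.

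To relate the family to the pluripotent state, cells were classed by the share of naive transcripts (Nanog, Klf4, Esrrb and 7 others) among all naive and formative transcripts (Dnmt3b, Otx2, Pou3f1 and 6 others). Cells at or above 0.75 were termed naive-high and cells at or below 0.25 formative-high. These classes are ranges of a score and not cell types, and 6.28% to 17.9% of cells lay near a limit. Naive-high cells made up 89.8%, 53.4%, 65.8% and 24.1% of libraries 1 to 4, and formative-high cells 2.25%, 15.0%, 9.65% and 41.6%.

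In every library the family took a smaller share of UMIs in formative-high than in naive-high cells. Naive-high cells had shares of 28.3%, 25.4%, 27.5% and 27.1% in libraries 1 to 4. Formative-high cells had 24.4%, 23.1%, 23.4% and 24.9%. The log2 ratios were -0.21, -0.14, -0.24 and -0.12, and their counting intervals were no wider than 0.01. Cells between the classes lay between these values in each library, at 27.0%, 24.7%, 25.7% and 26.3%. Over 5 bins of the naive share, the family share rose from bin to bin in each of the 4 libraries.

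Formative-high cells also differed in depth and mitochondrial share. Their median UMI count was 22183 in library 1 and 21704 in library 3, against 18145 and 18617 in naive-high cells, but nearly the same in libraries 2 and 4. Their mitochondrial share was lower in each library, for example 3.95% against 5.39% in library 1. Within groups of like UMI count the log2 ratios were -0.23, -0.14, -0.25 and -0.13, and with mitochondrial UMIs left out of the total they were -0.23, -0.14, -0.25 and -0.13 likewise. Libraries also differed within a class, with naive-high cells of library 2 (25.4%) below those of libraries 1, 3 and 4 (27.1% to 28.3%).

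**Figure D3:**
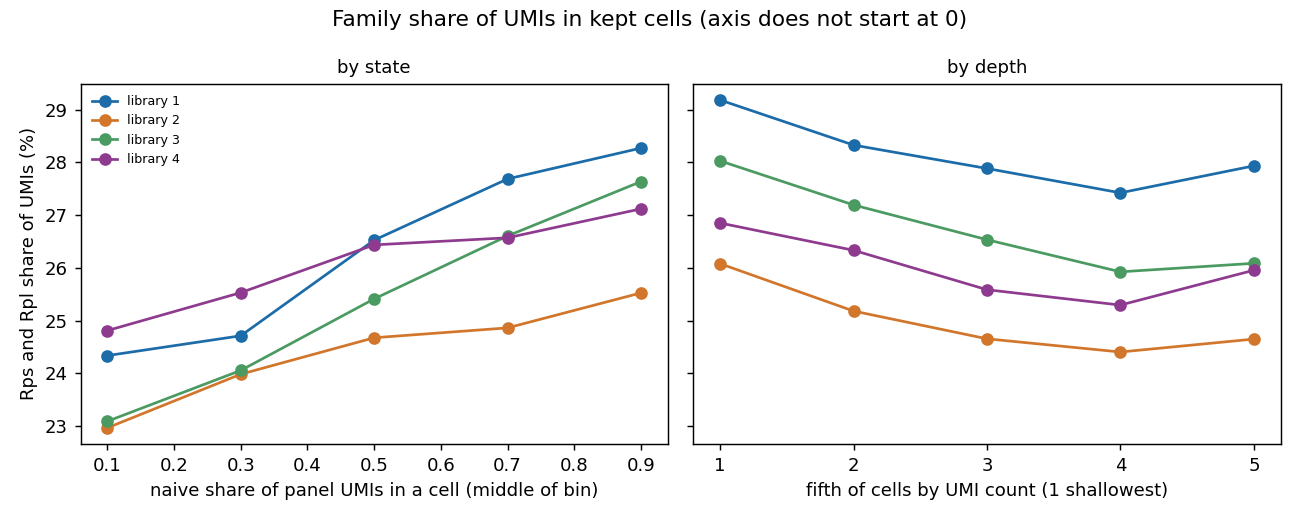
Share of UMIs in Rps and Rpl symbols (%) by the naive share of panel UMIs (left, middle of each bin) and by group of cells ordered by UMI count (right, 1 shallowest), with 1 line per library and an axis that does not start at 0. The share rises with the naive share in every library and is highest in the shallowest group of cells.

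The lower share in formative-high cells was spread over the family. Of the 73 ribosomal proteins, 66 (90.4%) were lower in formative-high cells in every library, compared with 22.9% of 10565 genes with enough counts. A single gene (1.37%), Rpl41, was higher in every library, compared with 46.0% of all genes. The remaining 6 genes (Rps2, Rpl7a, Rpl11, Rpl15, Rpl29 and Rpl31) differed in direction between libraries. The differences were small: 30 genes (41.1%) were at least 1.1-fold lower in every library, against 15.4% of all genes, and 0.00% were at least 1.1-fold higher, against 32.6% of all genes. The median gene of the table was higher in formative-high cells by 0.17, 0.11, 0.16 and 0.10 on the log2 scale, while the median ribosomal protein stood at -0.22, -0.15, -0.24 and -0.13. The groups by coding length differed little here, with medians of -0.20, -0.25 and -0.19 for the shortest, middle and longest genes in library 1. Large- and small-subunit genes had medians of -0.19 and -0.24 in that library.

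The genes that lay furthest below the family by their median over libraries, and below it in each library, were Rpl12, Rpl30, Rpl13a, Rps20 and Rps29. Rpl12, a protein at the base of the ribosomal stalk, had ratios of -0.44, -0.20, -0.45 and -0.23 on the log2 scale in the 4 libraries. Rpl30, a large-subunit protein, had -0.34, -0.30, -0.32 and -0.25. Rpl13a, which also takes part in silencing of inflammatory mRNAs, had -0.39, -0.19, -0.41 and -0.20. Rps20 had -0.29, -0.26, -0.36 and -0.29, and Rps29 had -0.38, -0.26, -0.35 and -0.21. Among these 5, Rps29 has the shortest coding sequence (168 nucleotides) and Rpl13a the longest (609 nucleotides).

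At the other end stood Rpl41, Rps2, Rpl7a, Rpl11 and Rpl31, which lay furthest above the family by the same measure. Rpl41 had log2 ratios of 0.29, 0.12, 0.12 and 0.12. Rps2, a protein at the mRNA entry channel, had 0.24, 0.16, -0.01 and 0.13, so it was higher in all libraries but library 3. Rpl7a had 0.16, 0.05, -0.18 and 0.03. Rpl11, which with Rpl5 and the 5S rRNA binds Mdm2, had values between -0.05 and 0.02, and Rpl31 between -0.05 and 0.03. Relative to the family these genes lay above 0 in each library, with Rps2 at 0.45, 0.30, 0.22 and 0.25.

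**Figure D4:**
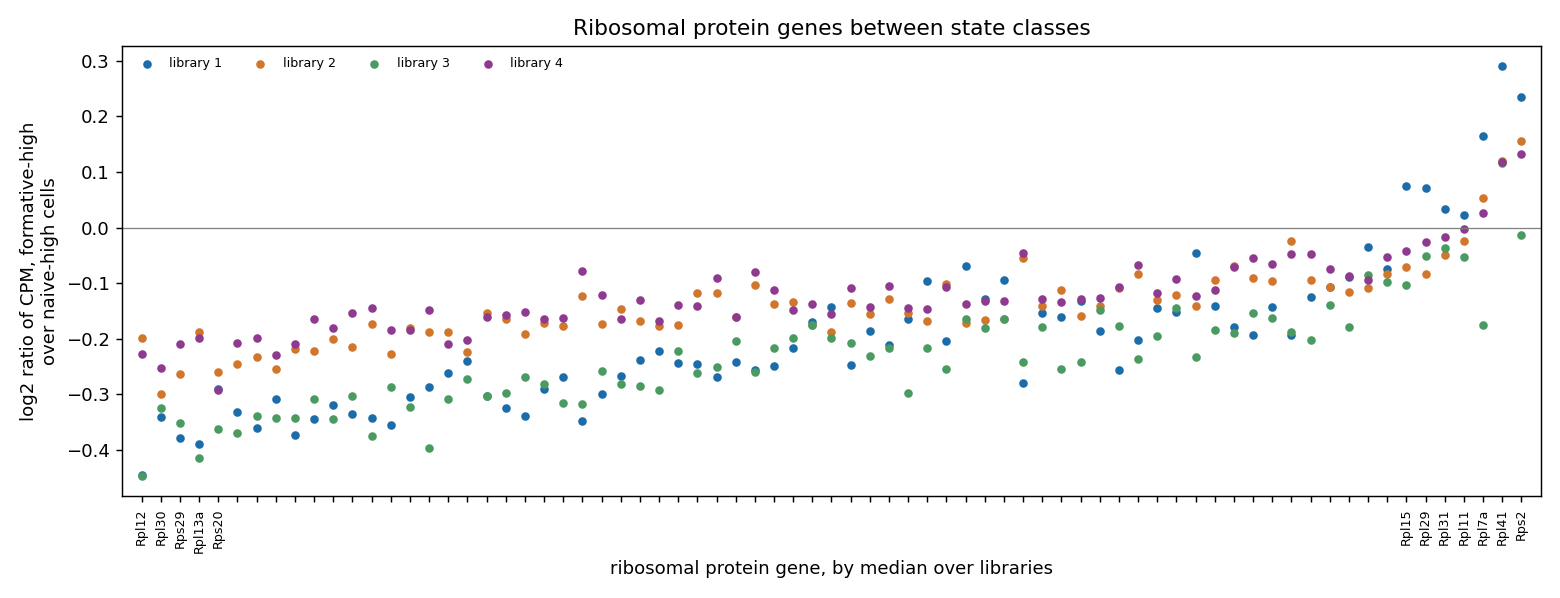
Log2 ratio of CPM in formative-high over naive-high cells for each of the 73 ribosomal protein genes, ordered by their median, with 1 point per library and the genes at both ends named. Nearly all points lie below 0, from Rpl12 and Rpl30 at the left to Rpl41 and Rps2 at the right, and Rpl41 alone lies above 0 in all 4 libraries.

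Other cell classes were compared in the same way. Keratin-high cells, with at least 3 UMIs of the epithelial keratins Krt8 and Krt18 after thinning, numbered 63, 35, 662 and 295 in libraries 1 to 4 and had family shares of 24.4%, 22.4%, 23.4% and 24.5%. Compared with all other cells, these gave log2 ratios of -0.20, -0.15, -0.20 and -0.08. In these cells 67 of the 73 ribosomal proteins (91.8%) were lower in every library, against 30.0% of all genes, and Rpl41 and Rps2 were the 2 (2.74%) that were higher in every library, against 32.3% of all genes. Their median depths were above those of other cells, for example 25387 against 19128 UMIs in library 3. When keratin-high cells were left out, the ratios of formative-high to naive-high cells were -0.20, -0.14, -0.20 and -0.12.

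The cell cycle went with smaller differences than those between formative-high and naive-high cells. Cells rich in S-phase transcripts had log2 ratios of -0.06, -0.09, -0.04 and -0.09 against cells low in both S and G2/M transcripts, and cells rich in G2/M transcripts had -0.04, -0.02, -0.01 and -0.05. The shares were thus lower in every library in both classes, with smaller differences than between states. S-rich cells were shallower than the reference in each library and G2/M-rich cells deeper.

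The relation to depth was read within each library. In the shallowest of 5 equal groups of kept cells the family took 29.2%, 26.1%, 28.0% and 26.8% of UMIs in libraries 1 to 4. In the deepest group it took 27.9%, 24.7%, 26.1% and 26.0%. The log2 ratios of deepest to shallowest were -0.06, -0.08, -0.10 and -0.05. In each library the lowest share belonged to the group next to the deepest, so the relation was not a straight line. Across cells, Pearson's r between log2 UMIs and the share lay between -0.20 and -0.01 (7464 to 8514 cells per library). Within naive-high cells alone the log2 ratios were -0.05, -0.09, -0.09 and -0.13.

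Barcodes that the filter removed had other shares. Those with low depth and a mitochondrial share above 10% numbered 969, 2064, 1106 and 1595, at median depths of 2447 to 3196 UMIs, and the family took 14.4%, 15.0%, 15.0% and 15.0% of their UMIs. As a share of non-mitochondrial UMIs this was 20.01%, 19.0%, 19.5% and 18.8%, still below the 25.9% to 29.6% of kept cells. Low-depth barcodes with an ordinary mitochondrial share were closer to kept cells, at 27.5%, 21.8%, 27.0% and 23.1% of all UMIs. With all barcodes included, the deepest group exceeded the shallowest, with log2 ratios of 0.16, 0.59, 0.30 and 0.59, so the direction of the relation to depth depended on the cell filter.

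The spread of single genes over cells was measured as variance over mean after thinning to 5000 UMIs per cell, where counting noise alone gives a value near 1. The median over the 73 genes was 1.35, 1.38, 1.46 and 1.47 in libraries 1 to 4. Rps20 varied most in each library, at 2.28, 2.68, 2.99 and 3.28. Rps12 (1.71 to 2.04), Rpl12 (1.74 to 2.26), Rpl13 (1.73 to 2.28) and Rps27a (1.67 to 1.97) followed by their median over libraries. Rpl29 varied least, at 1.00 to 1.06, and Rpl31, Rpl35, Rpl4 and Rpl38 were also low, between 1.08 and 1.39. Highly expressed genes varied more, with r between the log2 mean and the measure of 0.60 to 0.69 across genes. Rps20 exceeded Rpl13, a gene of similar level, in each library.

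All 73 genes correlated positively with the sum of the other members over cells in each library, with medians of 0.33, 0.41, 0.38 and 0.46. Rpl13 had the highest of these values by its median over libraries (0.49, 0.57, 0.62 and 0.63), and Rpl41 the lowest (0.01, 0.13, 0.02 and 0.18). Rpl41 was thus abundant, differed most between libraries and followed the other ribosomal proteins least from cell to cell.

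**Figure D5:**
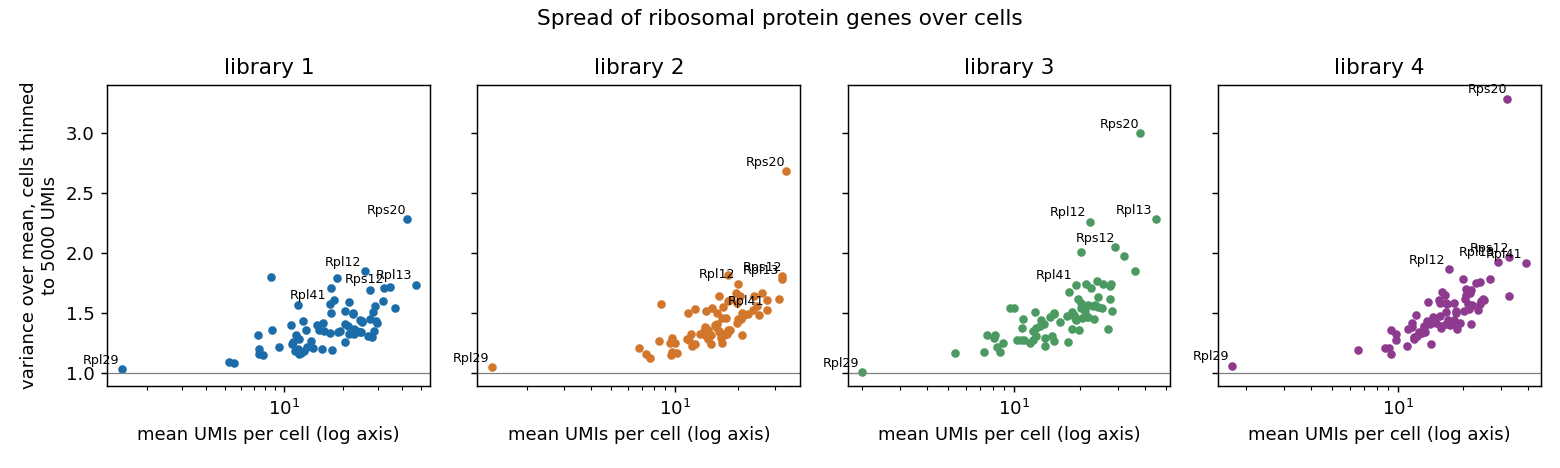
Variance over mean of UMIs per cell against the mean UMIs per cell (log axis) for each of the 73 ribosomal proteins after thinning to 5000 UMIs, 1 panel per library, with a line at 1. Rps20 stands above all other genes in each panel, from 2.28 in library 1 to 3.28 in library 4, and Rpl29 lies at the lower left near 1.

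Among the paralogs, which resemble a ribosomal protein but come from a gene of their own, Rpl39l and Rpl10l were far lower in formative-high cells. Rpl39l, a relative of Rpl39 known from testis and stem cells, was at 23.8, 35.5, 38.6 and 36.3 CPM in libraries 1 to 4, and its log2 ratios of formative-high to naive-high cells were -1.91, -1.09, -1.87 and -1.39. Rpl10l, the relative of Rpl10 used in male germ cells, was low, at 14.3, 16.3, 11.5 and 10.96 CPM, with log2 ratios of -2.50, -1.39, -1.69 and -1.36. In library 1 the ratio of Rpl10l rests on 12 counts in formative-high cells and has a counting interval of -3.46 to -1.70. That of Rpl39l rests on 30 counts, with an interval of -2.47 to -1.39. The genes that these paralogs resemble differed less, with log2 ratios between -0.34 and -0.15 for Rpl39 and between -0.18 and -0.09 for Rpl10. Rps27l, a relative of Rps27 that p53 can induce, went the other way. It was at 818, 1399.6, 972 and 1569 CPM and had log2 ratios of 0.51, 0.30, 0.63 and 0.32, while Rps27 had -0.35, -0.12, -0.32 and -0.08.

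Rpl22l1, a relative of Rpl22 with roles in RNA processing, was at 436, 747, 478 and 837 CPM, a 1.92-fold range, with log2 ratios of 0.47, 0.04, 0.28 and 0.09. Rpl22 itself had -0.29 to -0.17. Rpl36al (934 to 1270.2 CPM), Rpl7l1 (163 to 203 CPM) and Rps27rt (35.7 to 46.3 CPM) ranged 1.36-fold, 1.24-fold and 1.30-fold. Log2 ratios of formative-high to naive-high cells were 0.17, 0.03, 0.05 and 0.04 for Rpl36al and -0.04, -0.04, -0.10 and 0.06 for Rpl7l1. Of the 7 paralogs with enough counts, 3 (Rpl39l, Rps27l and Rpl22l1) exceeded 1.5-fold between libraries, against 41.0% of all genes. Rps27rt was lower in formative-high cells in every library, with log2 ratios of -0.24, -0.02, -0.23 and -0.18, of which the value of library 2 lay within counting error of 0 (-0.10 to 0.07). The counts of near-identical copies such as Rps27rt and Rps27, or Rpl36al and Rpl36a, may have been split between them and are uncertain for that reason.

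Symbols of pseudogenes were low. Rpl9-ps6 was at 69.7, 39.8, 63.2 and 25.7 CPM, a 2.72-fold range. Its parent gene Rpl9, at 3868, 2877, 3993 and 2649 CPM, was likewise higher in libraries 1 and 3. Rpl10-ps3 (22.4 to 34.7 CPM, 1.54-fold) and Rpl36a-ps1 (16.8 to 29.9 CPM, 1.78-fold) also passed 1.5-fold. Reads of these symbols can stem from the parent genes, so the values are uncertain.

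The Rps6 kinases were expressed far below the ribosomal proteins. Rps6kb1, the S6 kinase downstream of mTOR, was at 49.0, 50.3, 46.9 and 48.1 CPM, a 1.07-fold range, and Rps6kb2 at 7.75 to 9.48 CPM (1.22-fold). Among the RSK kinases, which act downstream of ERK, Rps6ka1 was at 57.4 to 79.9 CPM (1.39-fold) and Rps6ka3 at 7.85 to 11.7 CPM (1.496-fold). Rps6ka6 was at 28.1, 54.4, 29.5 and 55.1 CPM, a 1.97-fold range with its higher levels in libraries 2 and 4, and Rps6ka2 was at 6.53 to 11.7 CPM (1.79-fold). Rps6ka6 was also higher in formative-high cells, with log2 ratios of 0.66, 0.42, 0.23 and 0.32. Rps6ka3 (0.90, 0.19, 0.96 and 0.24), Rps6kc1 (0.98, 0.26, 0.33 and 0.49) and Rps6kb1 (0.11, 0.05, 0.10 and 0.13) were likewise higher, in part within counting error of 0. Of all genes, 46.0% were higher and 22.9% lower in every library. Rps6ka5, also known as MSK1, was lower in formative-high cells, at -0.50, -0.71, -0.27 and -0.56, and ranged 1.40-fold between libraries. Rps6kb2 was lower too, at -0.66, -0.43, -0.36 and -0.11. Rps6ka2 (-0.38, 0.75, 0.56 and 0.46) and Rps6ka1 (-0.29, 0.10, -0.22 and -0.04) differed in direction between libraries, in part within counting error of 0. Rps6kl1 had log2 ratios of -0.56, -0.49, -0.89 and -0.57 and a 1.84-fold range, and Rps6kc1 (3.23 to 4.46 CPM) a 1.38-fold range. Counting error was wide for these low genes, from 1.23 to 1.54 for the range of Rps6kc1 and from -1.17 to -0.01 for the log2 ratio of Rps6kl1 in library 1, which rests on 27 counts. Of the 9 kinases with enough counts, 3 (Rps6ka2, Rps6ka6 and Rps6kl1) were past 1.5-fold between libraries, against 41.0% of all genes. Rps19bp1, which binds Rps19, was at 88.5 to 108 CPM, a 1.22-fold range.

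Some ribosomal proteins whose symbols fall outside the rule were set beside the family. Rplp0, the core of the stalk, was at 4098, 3982, 4227 and 3847 CPM, a 1.099-fold range, and unlike the family it was higher in formative-high cells, with log2 ratios of 0.26, 0.14, 0.08 and 0.08. The stalk proteins Rplp1 and Rplp2, with short coding sequences (342 and 345 nucleotides), ranged 1.39-fold and 1.37-fold and were lower in formative-high cells in every library. Rpsa, a small-subunit protein also known as a laminin receptor, was at 6472, 4928, 6611 and 4772 CPM, with libraries 1 and 3 above libraries 2 and 4, as in the sum of the longest genes. Fau, a fusion of a ubiquitin-like protein with a small-subunit protein, ranged 1.11-fold. Of these 5 genes, 4 were lower in formative-high cells in every library, against 22.9% of all genes.

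Other genes of the translation machinery were counted in the same way. Of 17 translation genes with TOP mRNAs, 2 exceeded 1.5-fold between libraries, with Eef2 (1.06-fold) and Nap1l1 (1.59-fold) at the ends, and 3 were lower in formative-high cells in every library while 7 were higher. The shares of all genes were 41.0% past 1.5-fold, 22.9% lower and 46.0% higher, and apply to the lists that follow too. Rack1, a protein bound to the small subunit, was among the lower ones, at -0.23, -0.19, -0.28 and -0.18. Of 25 ribosome biogenesis genes, 4 exceeded 1.5-fold between libraries, from Gar1 (1.07-fold) to Polr1b (2.17-fold), and 9 were lower and 8 higher in formative-high cells in every library. The 78 genes with symbols of mitochondrial ribosomal proteins summed to 8861 to 9525 CPM, and 10 of them exceeded 1.5-fold. The median log2 ratio of formative-high to naive-high cells lay between 0.00 and 0.07 for the TOP list and between -0.04 and 0.08 for the biogenesis list, compared with -0.24 to -0.13 for the ribosomal proteins.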

How the data were processed

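Droplet single-cell RNA-seq (10x Genomics 3′ v3) was performed by the authors on 4 samples of mouse embryonic stem cells. The deposited values are raw UMI counts per gene and cell barcode, which the authors obtained with Cell Ranger 6.1.2 on mm10 and joined with its aggregation step. That step subsamples reads so that libraries have similar depths, so depth differences were reduced before deposit. No library number could be tied to a sample, so genotypes were not compared.

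Cells were kept at or above the library mean minus 1 SD of UMIs and of genes, with at most 10% mitochondrial UMIs. Counts were summed per library and divided by total UMIs to 1000000 (CPM). Intervals are exact Poisson or Clopper-Pearson intervals (95%). Genes needed 200 counts, and a gene was counted as differing at 1.5-fold, a rule of size without a test. For state, cycle and keratin classes, cells were thinned to 5000 UMIs, and at least 4 panel UMIs were required. Utf1 was left out of the formative panel. No doublet caller was applied, and cells above 2 times the median depth were left out in an alternative. Coding lengths and GC content are from GENCODE M21 (GRCm38) and start windows from RefSeq (GRCm38.p6), the window nearest the GENCODE start being used. Python 3.11.15, scipy 1.17.1 and R 4.3.3 with edgeR 4.0.16 (TMM factors) were used, and scripts were tested on simulated data. Groups by coding length were chosen after the data were seen.

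Named genes were the 5 highest and lowest by level, by fold between libraries, by departure from the family between states and by spread over cells, all other symbols of the rule, the ribosomal proteins with other symbols, and the extremes of the other lists. Rps18, Rpl10a and genes named beside them were added after their values were seen. Results for 2 genes that this rule names are not reported here. The members, lists and rules were chosen with earlier results of these data known.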

Additional observations from a re-analysis of the deposited data

How the results depend on the processing

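No p-value, replicate error or genotype comparison was possible, and libraries differ by culture, preparation and sequencing together, so these cannot be told apart. No paired analysis was possible because the library numbers could not be tied to the labelled samples, and the planned fits of Srrm2 hKO against WT were not run. Counting error was small for the family and the ribosomal proteins but wide for kinases and paralogs of low level. The fold of the family share between libraries 1 and 2 (1.13) was 1.14 with all barcodes, 1.13 with limits on log10 values, without the deepest cells and as a mean over cells, 1.14 without mitochondrial UMIs, 1.26 with size factors, 1.251 with TMM factors and 1.13 for ribosomal proteins alone. Leaving out each library in turn gave 1.07 to 1.13 between the highest and lowest library that remained. These were libraries 3 and 2 without library 1, and libraries 1 and 4 without library 2. The 23 genes past 1.5-fold became 36 with TMM factors and 36 with size factors (49.3%, against 40.9% and 41.3% of all genes), 48 (65.8%, against 72.6%) at a limit 25% above the lowest library and 6 (8.22%, against 16.3%) at 2-fold, and 4 to 23 (5.48% to 31.5%, against 29.6% to 36.2%) without each library in turn, lowest without library 4. Scaling to the UMIs of the family gave 17 (23.3%, against 46.6%) and leaving out mitochondrial UMIs 26 (35.6%, against 40.6%). Count minimums of 50 and 1000, and no minimum, each left 23 (31.5%, against 48.0%, 32.3% and 63.2%). With TMM factors 15 genes entered and 2 left the 23, and with size factors also 15 and 2. The ratio of library 3 to library 1 for Rps13 (1.01) was 0.942 with TMM factors and 0.930 with size factors.

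The log2 ratio of formative-high to naive-high cells in libraries 1 to 4 was -0.22, -0.14, -0.24 and -0.13 after thinning to 10000 UMIs, -0.20, -0.11, -0.21 and -0.10 with limits of 0.6 and 0.4, -0.19, -0.13, -0.22 and -0.12 with Utf1 kept, -0.23, -0.14, -0.25 and -0.13 within groups of like depth, -0.23, -0.14, -0.25 and -0.13 without mitochondrial UMIs, and -0.20, -0.14, -0.20 and -0.12 without keratin-high cells. The ratio of deepest to shallowest cells reversed to 0.16, 0.59, 0.30 and 0.59 with all barcodes, which adds the shallow barcodes that the filter removes. It was -0.0704, -0.0885, -0.11 and -0.0556 without mitochondrial UMIs and -0.0485, -0.0870, -0.0855 and -0.13 in naive-high cells.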
